A study of Mus musculus with 8 samples.

Results

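Potassium channels let potassium ions cross the cell membrane down their gradient, and so set the resting voltage that drives other ions and solutes through transporters. Their pores are built from alpha subunits of several families: voltage-gated subunits (Kcna to Kcnd, Kcnh and Kcnq), silent subunits that only work inside the channels of another family, calcium- or sodium-activated subunits, inward rectifiers (Kcnj) and tandem-pore subunits (Kcnk), while auxiliary subunits (Kcnab, Kcne, Kcnip and Kcnmb) attach to the pore and tune it. In the kidney they recycle and secrete potassium along the tubule, hold the tone of vessels and set the voltage of epithelial cells. The genes described here are those whose symbol is Kcn, then letters, a number and at most a last letter, and 92 of the 30890 genes in the count table carried such a symbol.

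Kidneys of C57BL/6 mouse embryos at E12.5 were cultured for 72 hours on a filter with 5 µM CHIR99021 or with 0.1% DMSO, and total RNA of 4 samples per group was sequenced. CHIR99021 blocks the kinase GSK-3β and so stabilises β-catenin, the effector of canonical Wnt signalling, and DMSO is its solvent. By the study's methods the left kidney of an embryo went to DMSO and the right kidney to CHIR99021, so the side and the treatment cannot be told apart, and kidneys in which Wnt/β-catenin targets had not responded were left out. The samples hold a whole organ, in which fewer cells of a type and less RNA per cell cannot be told apart.

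Library totals ran from 14599082 to 17751992 counts. All 8 canonical target genes checked rose with CHIR99021, but the kidneys had been chosen on such genes. Nephron progenitor markers were plain in the DMSO samples, where Six2 stood at 176 to 238 CPM, and were low with CHIR99021, where Six2 stood at 2.74 to 6.57 CPM. The markers of endothelium (6 of 6) and macrophages (8 of 8) fell, where 25.0% of all tested genes fell. So did 4 of 6 of ureteric epithelium, 4 of 5 of early nephron tubule and 3 of 5 of stroma. The stromal marker Pdgfra rose from a mean of 222 CPM with DMSO to 505 CPM with CHIR99021, while Foxd1, Meis1 and Ntn1 fell. Tbx18 did not pass the test. Summed stromal markers stood at 336 to 427 CPM with DMSO and 571 to 617 CPM with CHIR99021. Most of that sum was Pdgfra in both groups. The macrophage markers summed to 120 CPM in DMSO replicate 4 and to 413 to 437 CPM in DMSO replicates 1 to 3. Summed markers of neurons in replicate 2 stood at 91.6 CPM with DMSO and 170 with CHIR99021, against 12.0 to 43.7 in the other 6 samples. Levels between samples are given as CPM, counts scaled to the size of the library by TMM, and levels between genes as FPKM, which also divides by gene length.

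CHIR99021 moved most of the potassium channel subunits that could be tested, and more of them down than up. With edgeR's quasi-likelihood test, 17 subunits rose and 30 fell at an adjusted p under 0.05, and 15 did not pass. Of the 62 tested subunits 27.4% rose, where 23.7% of all 16723 tested genes did, and 48.4% fell, where 25.0% of all tested genes did. Beyond a log2 fold change of 1, 12 rose (19.4% of those tested, against 4.65% of all tested genes) and 21 fell (33.9%, against 9.16%). The median log2 fold change was -0.50 over the tested subunits and 0 over all tested genes. The 4 CHIR99021 samples did not overlap the 4 DMSO samples in CPM for 43 of the tested subunits (69.4%), and that held for 46.1% of all tested genes.

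Of the 92 subunits 30 were too low to be tested, with 1 to 94 counts over the 8 samples. Of the 62 tested, 44 passed the count filter in both groups, 8 passed it only in the DMSO samples and 8 only in the CHIR99021 samples, and a gene that enters only through its higher group was partly chosen for a difference. Of the 12 that rose beyond 1, 7 passed the filter only in the CHIR99021 samples (Kcnf1, Kcnip1, Kcnj12, Kcnk10, Kcnmb1, Kcnmb4 and Kcnq3). Of the 21 that fell beyond 1, 6 passed it only in the DMSO samples (Kcna7, Kcne1, Kcnip2, Kcnj1, Kcnj5 and Kcnj10). In 37 of the 92 the mean reached 1 FPKM in at least 1 group. Summed over all 92 genes the level ran from 451 to 511 CPM with DMSO and from 373 to 414 CPM with CHIR99021, so the groups did not overlap.

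The order of the subunits by level changed with the treatment. Per length, the most abundant with DMSO were Kcnj8 (24.1 ± 4.49 FPKM, SD, n = 4), the pore of vascular ATP-sensitive channels, and Kcnk1 (15.1 ± 1.41 FPKM), a tandem-pore subunit, followed by Kcnj16 (11.4 ± 1.42 FPKM), a rectifier of tubule cells. With CHIR99021, Kcnk1 came first (10.5 ± 0.80 FPKM), and the next places went to Kcnk2 (5.90 ± 0.43 FPKM) and Kcnab1 (5.54 ± 0.38 FPKM), which had stood at 0.908 and 0.264 FPKM with DMSO. Kcnk2 and Kcnab1 lie within their SDs of each other in that order.

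**Figure D1:**
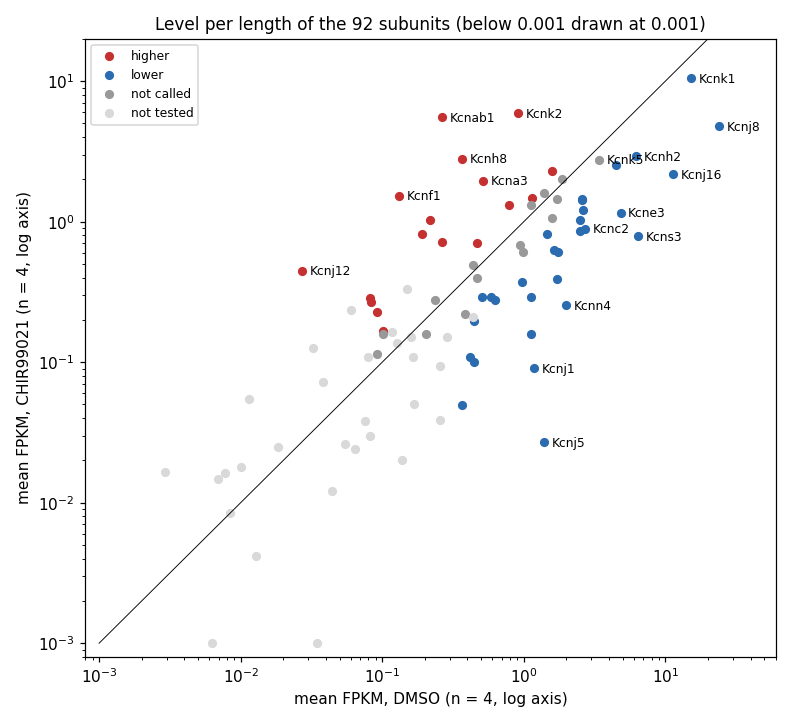
Mean FPKM of each of the 92 subunits with DMSO (x axis) and with CHIR99021 (y axis), 4 samples each, both axes logarithmic, with the line of equal levels. Points are coloured by the edgeR call, and Kcnab1 and Kcnk2 stand far above the line while Kcnj8, Kcnj16 and Kcns3 stand below it.

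The classes moved to different extents, and of all tested genes 23.7% rose and 25.0% fell. Among inward rectifiers 7 of 10 tested members fell and 2 rose, with a median log2 fold change of -1.55, and their summed level was 110 to 159 CPM with DMSO and 31.2 to 45.6 CPM with CHIR99021. Among voltage-gated alpha subunits 11 of 23 fell and 6 rose (median -0.66), and the share that rose was near that of all tested genes. Auxiliary subunits split into 7 of 14 that fell and 5 that rose (median -0.41), yet their summed level was 57.6 to 65.2 CPM with DMSO and 91.0 to 103 CPM with CHIR99021. Tandem-pore subunits were the only other class with a higher sum, at 52.4 to 62.6 CPM with DMSO and 69.3 to 80.7 CPM with CHIR99021, with 2 of 6 tested members higher and 1 lower. On average Kcnab1 supplied 2.17 CPM of the auxiliary sum with DMSO and 50.0 CPM with CHIR99021, and Kcnk2 supplied 4.29 and 30.6 CPM of the tandem-pore sum.

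**Figure D2:**
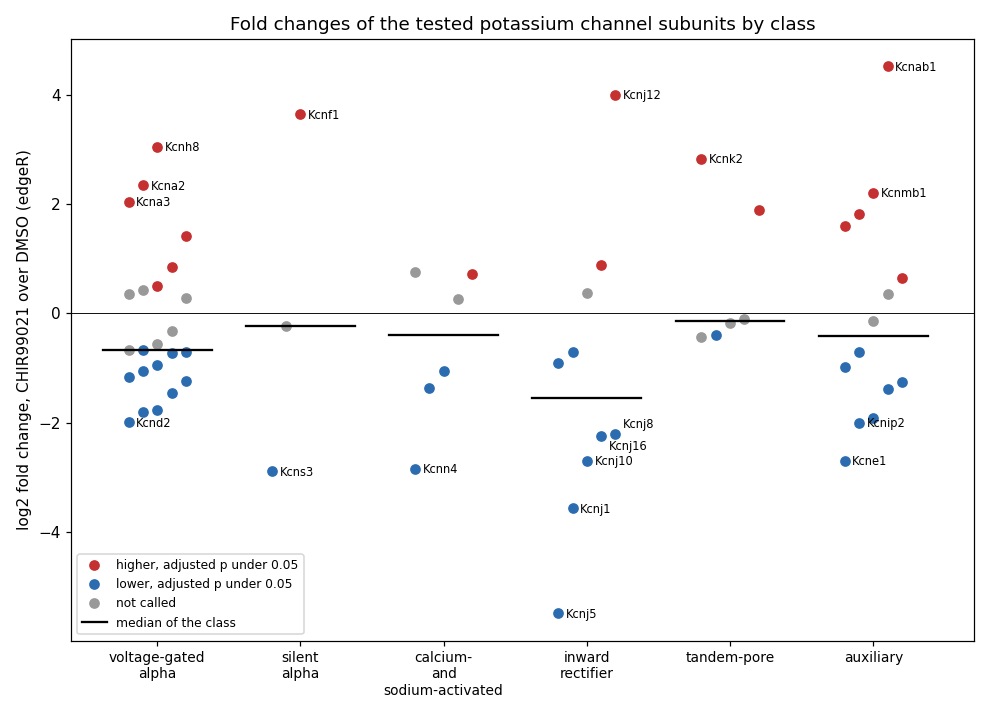
Log2 fold change (CHIR99021 over DMSO, edgeR) of the 62 tested subunits by class, with each point a gene coloured by its call and the black bar the class median. The inward rectifiers have the lowest median, at -1.55, and hold both Kcnj5 at -5.48 and Kcnj12 at 4.00.

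Among the voltage-gated alpha subunits, 4 rose by more than 1 on the log2 scale. Kcnh8 encodes a channel of the Elk branch of the ether-à-go-go family (chr17:52602709-52979194, GRCm38, + strand). It stood at 2.54, 1.26, 0.879 and 1.77 CPM in DMSO replicates 1 to 4 and at 13.5, 11.9, 13.9 and 14.5 CPM with CHIR99021. Every CHIR99021 sample was far above every DMSO sample, and the log2 fold change was 3.05 ± 0.24 (SE, adjusted p = 8.00e-07).

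The delayed rectifier genes Kcna2 and Kcna3, of the Shaker family, are neighbours on chromosome 3 with 63.1 kb between them, and both rose. Kcna2 measured 2.70, 2.06, 2.23 and 3.01 CPM with DMSO and 8.92, 9.97, 14.4 and 17.4 CPM with CHIR99021. Kcna3, best known from lymphocytes, measured 1.08, 0.971, 0.996 and 0.720 CPM with DMSO and 3.81, 4.55, 4.59 and 2.70 CPM with CHIR99021. Neither gene's groups overlapped, and the log2 fold changes were 2.34 ± 0.23 and 2.04 ± 0.24 (SE, adjusted p = 5.01e-06 and 1.66e-05). In the cluster of Shaker genes on chromosome 6, Kcna5 fell (log2 fold change -0.72 ± 0.22, adjusted p = 0.0151), Kcna6 did not pass (-0.56 ± 0.23, adjusted p = 0.059) and Kcna1 was too low to be tested. Kcna6 passed with the replicate block (adjusted p = 0.0332) and without CHIR99021 replicate 1 (0.0484) or 2 (0.0143).

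Kcnq3 was the fourth, a subunit of the channel behind the neuronal M current. Kcnq3 measured 1.03, 2.63, 0.820 and 0.589 CPM with DMSO and 3.25, 5.49, 2.15 and 2.76 CPM with CHIR99021. Replicate 2 was highest in both groups, and the DMSO sample of that number lay above the lowest CHIR99021 sample, so the groups overlapped. The log2 fold change of Kcnq3 was 1.42 ± 0.45 (adjusted p = 0.0247). Its adjusted p rose to 0.0698, 0.068 and 0.0532 without DMSO replicates 1, 3 and 4 and to 0.0613 without CHIR99021 replicate 2, while the log2 fold change was 2.04 without DMSO replicate 2, leaving out both samples of number 2 gave an adjusted p of 0.00107 and the replicate block gave 0.000275.

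Of the voltage-gated alpha subunits that fell, 6 fell by more than 1 on the log2 scale at levels of at least 1 CPM. Kcnc2, of the fast Shaw family, measured 19.5, 21.8, 14.5 and 17.8 CPM with DMSO and 7.86, 5.56, 5.38 and 7.82 CPM with CHIR99021. The lowest DMSO sample of Kcnc2 was well above its highest CHIR99021 sample, and the log2 fold change was -1.46 ± 0.16 (SE, adjusted p = 1.02e-05). Kcnd2, a pore subunit of fast inactivating A-type channels, measured 9.58, 8.45, 7.85 and 7.85 CPM with DMSO and 1.87, 3.41, 2.30 and 0.920 CPM with CHIR99021, a log2 fold change of -1.99 ± 0.28. The groups of Kcnd2 were far apart (adjusted p = 1.09e-04).

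The ether-à-go-go relatives Kcnh1 and Kcnh3 also fell, opposite to Kcnh8. Kcnh1 measured 4.06, 4.68, 3.87 and 4.97 CPM with DMSO and 2.62, 1.54, 2.08 and 2.24 CPM with CHIR99021. Kcnh3, like Kcnh8 of the Elk branch, measured 3.46, 3.43, 5.45 and 3.01 CPM with DMSO and 1.31, 0.937, 1.22 and 0.920 CPM with CHIR99021. Neither gene's groups overlapped, and the log2 fold changes were -1.05 ± 0.20 and -1.80 ± 0.25 (SE, adjusted p = 7.47e-04 and 6.29e-05). Kcnh2, the hERG channel of cardiac repolarisation and the most abundant of the voltage-gated subunits per length (6.21 FPKM with DMSO), fell by less, with 28.8 ± 2.95 CPM (SD) against 14.8 ± 1.85 CPM, no overlap of groups and a log2 fold change of -0.95 ± 0.10 (adjusted p = 8.81e-06).

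Kcnq1, whose channel works in heart, inner ear and epithelia together with Kcne subunits, measured 7.74, 9.88, 9.67 and 12.0 CPM with DMSO and 3.62, 4.48, 4.66 and 4.80 CPM with CHIR99021. The groups were apart in every sample (log2 fold change -1.16 ± 0.16, adjusted p = 5.88e-05). The Kcnq1 gene shares 2.96% of its exon bases with the transcript Kcnq1ot1 of the opposite strand. Kcnq1ot1 had 6465 counts over the 8 samples, and Kcnq1 had 664 with DMSO and 263 with CHIR99021. The sources used here do not state whether counting took account of the strand. A smaller fall was found for Kcnq5 (-0.66 ± 0.18), and Kcna7 fell by 1.76 on the log2 scale at a level below 1 CPM. Kcnd3, the closest relative of Kcnd2, and the Shab gene Kcnb2 rose by small amounts, with log2 fold changes of 0.50 ± 0.12 and 0.84 ± 0.27 (adjusted p = 0.00445 and 0.0212). Kcnb2 did not pass without CHIR99021 replicate 1 (0.0559) or 3 (0.0625).

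Only 3 of the 10 silent subunits had enough counts to be tested, and the changes of Kcns3 and Kcnf1 had opposite signs. Kcns3, which joins Shab subunits in mixed channels, varied little within groups, at 18.6, 19.6, 20.1 and 19.2 CPM with DMSO and 3.00, 2.95, 2.08 and 2.43 CPM with CHIR99021. Kcnf1, another silent partner of the Shab family, measured 0.974, 0.571, 0.410 and 0.458 CPM with DMSO and 6.12, 7.97, 7.32 and 9.40 CPM with CHIR99021. The log2 fold changes were -2.88 ± 0.13 and 3.64 ± 0.26 (SE, adjusted p = 3.03e-09 and 2.33e-07), with no overlap in either gene. Kcng1 did not pass (-0.23 ± 0.37, adjusted p = 0.648).

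Among the calcium- and sodium-activated subunits, Kcnn4, the intermediate-conductance channel of blood cells and epithelia, changed most. It measured 9.85, 8.56, 11.6 and 8.96 CPM with DMSO and 0.811, 1.27, 2.15 and 1.25 CPM with CHIR99021, with the groups far apart (log2 fold change -2.84 ± 0.23, adjusted p = 7.72e-07). All 8 macrophage markers also fell with CHIR99021. In DMSO replicate 4 the macrophage marker Lyz2 was down to 53.3 CPM (206 to 235 CPM in replicates 1 to 3), and Kcnn4 there stood at 8.96 CPM, within the range of those replicates. The part of macrophages in the fall of Kcnn4 was not tested. Kcnn3, a small-conductance channel, measured 3.68, 4.85, 3.92 and 5.37 CPM with DMSO and 2.12, 2.81, 1.51 and 2.10 CPM with CHIR99021 (log2 fold change -1.05 ± 0.22, adjusted p = 0.0014). Kcnt2, a sodium-activated channel, measured 10.5, 11.5, 12.0 and 11.7 CPM with DMSO and 4.62, 4.89, 3.44 and 4.80 CPM with CHIR99021 (-1.36 ± 0.13, adjusted p = 3.50e-06). Neither gene's groups overlapped.

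Genes of the large-conductance calcium-activated (BK) channel moved in both directions. The pore gene Kcnma1 stood at 7.74, 7.54, 5.45 and 9.68 CPM with DMSO and at 11.2 to 14.6 CPM with CHIR99021, with no overlap and a log2 fold change of 0.72 ± 0.16 (adjusted p = 0.0023). The beta subunit Kcnmb1, known from smooth muscle, measured 1.19, 0.742, 0.176 and 0.982 CPM with DMSO and 4.06, 3.41, 3.59 and 3.35 CPM with CHIR99021. The beta subunit Kcnmb4, known from neurons, measured 0.487, 0.742, 0.820 and 1.31 CPM with DMSO and 2.25, 2.08, 3.09 and 2.63 CPM with CHIR99021. Both genes passed the count filter only in the CHIR99021 samples, all of which stood above all DMSO samples, and the log2 fold changes were 2.21 ± 0.35 and 1.59 ± 0.29 (SE, adjusted p = 2.14e-04 and 6.08e-04). Kcnmb4 shares 20.8% of its exon bases with the transcript Kcnmb4os2 and 10.7% with Kcnmb4os1. Lrrc55, a gamma subunit outside the Kcn names that eases opening of the channel, stood at 0.131 to 0.325 CPM with DMSO and rose to between 1.68 and 3.44 CPM (3.40 ± 0.35, adjusted p = 5.22e-06). The gamma subunits Lrrc26, Lrrc38 and Lrrc52 and the beta subunit Kcnmb3 were too low to be tested.

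Kcnmb2, an inactivating beta subunit of the same channel, fell. It measured 3.84, 3.37, 1.58 and 2.81 CPM with DMSO and 0.749, 1.74, 1.65 and 0.723 CPM with CHIR99021. DMSO replicate 3 lay below 2 of the CHIR99021 samples, so the groups overlapped (log2 fold change -1.26 ± 0.35, adjusted p = 0.00976). Of 8 smooth muscle and pericyte markers 2 rose, 2 fell, 3 did not pass and Tagln was near 0. Those that rose were Acta2 (1.62 ± 0.26, adjusted p = 0.00193) and Cnn1 (1.73 ± 0.56, adjusted p = 0.0355). Those that fell were Rgs5 (-1.68 ± 0.26, adjusted p = 0.0014) and Mcam (-0.91 ± 0.08, adjusted p = 2.24e-06). The summed level of all 8 was 750 to 939 CPM with DMSO and 762 to 866 CPM with CHIR99021. The part of these cells in the BK result was not tested.

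Kcnj5 and Kcnj1, which passed the count filter only in the DMSO samples, had the lowest fitted log2 fold changes of the tested subunits. Kcnj5, a subunit of G protein-gated channels (chr9:32314707-32344350, − strand), measured 8.55, 6.34, 4.28 and 5.95 CPM with DMSO and 0.250, 0, 0.215 and 0.0657 CPM with CHIR99021. Its neighbour Kcnj1, 28.1 kb away on the + strand (chr9:32372493-32399197), is the ROMK channel through which thick limb and collecting duct cells pass potassium to the urine. Kcnj1 measured 4.11, 4.51, 2.05 and 4.58 CPM with DMSO and 0.437, 0.134, 0.502 and 0.197 CPM with CHIR99021. No CHIR99021 sample of either gene exceeded 0.502 CPM, and the log2 fold changes were -5.48 ± 0.44 and -3.56 ± 0.39 (SE, adjusted p = 7.08e-07 and 8.68e-06).

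The 3 markers of thick limb and distal tubule moved with Kcnj1. Their summed level was 81.6, 57.1, 23.4 and 56.4 CPM with DMSO and 4.88 to 7.97 CPM with CHIR99021, and DMSO replicate 3 was lowest of its group in the markers as in Kcnj1. Slc12a1, the cotransporter that brings potassium into thick limb cells, fell by 3.08 on the log2 scale and Slc12a3 by 2.71, and Umod stood at 0 to 0.0657 CPM with CHIR99021. Their part in the fall of Kcnj1 was not tested.

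Kcnj10 and Kcnj16, which join in one basolateral channel of distal tubule cells, fell together. Kcnj10 measured 5.95, 7.54, 4.51 and 5.37 CPM with DMSO and 1.06, 1.20, 1.00 and 0.329 CPM with CHIR99021. Kcnj16 measured 42.0, 44.9, 35.7 and 48.7 CPM with DMSO and 12.8, 9.91, 6.96 and 6.24 CPM with CHIR99021. Replicate 4 was lowest for both genes with CHIR99021 and replicate 3 with DMSO, and the groups were apart (log2 fold changes -2.69 ± 0.30 and -2.25 ± 0.21, adjusted p = 1.03e-05 and 2.59e-05). Kcnj2, a strong rectifier that lies 38.2 kb from Kcnj16 on chromosome 11, fell by 0.71 on the log2 scale with overlapping groups (adjusted p = 0.0124), and Kcnj15 fell by 0.90 (adjusted p = 0.00832), and neither passed with limma on log2(count + 1) (adjusted p = 0.083 and 0.0633).

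Kcnj8 was the most abundant subunit with DMSO and lost its place. It forms the pore of ATP-sensitive channels in pericytes and vascular muscle, together with the sulphonylurea receptor Abcc9. Kcnj8 measured 66.8, 70.2, 47.8 and 50.4 CPM with DMSO and 12.0, 17.4, 12.7 and 9.20 CPM with CHIR99021. Abcc9 measured 267, 264, 172 and 204 CPM with DMSO and 46.2, 42.0, 34.8 and 24.7 CPM with CHIR99021. In both genes DMSO replicates 1 and 2 were above 3 and 4 and CHIR99021 replicate 4 was lowest, and the log2 fold changes were -2.20 ± 0.21 and -2.62 ± 0.24 (SE, adjusted p = 3.98e-05 and 9.16e-05).

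The other pair of this channel type, Kcnj11 and Abcc8, known from pancreatic beta cells, was low in all samples. Kcnj11 did not pass (0.37 ± 0.27, adjusted p = 0.277), and Abcc8 fell by 0.94 on the log2 scale (adjusted p = 0.0126). Beside Kcnj8, all 6 endothelial markers fell, with a summed level of 547, 538, 392 and 390 CPM with DMSO and 150 to 208 CPM with CHIR99021. Of the pericyte markers Rgs5 fell by 1.68 and Mcam by 0.91 on the log2 scale, while Pdgfrb (-0.10 ± 0.16) and Notch3 (0.01 ± 0.05) did not pass. The part of these cells in the fall of Kcnj8 was not tested.

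Kcnj12 and Kcnj4 were the inward rectifiers that rose, and both belong with Kcnj2 to the strong rectifiers. Kcnj12 measured 0.162, 0.0571, 0 and 0.0654 CPM with DMSO and 0.686, 1.47, 1.51 and 1.51 CPM with CHIR99021. It was near 0 in the DMSO samples, so its log2 fold change of 4.00 ± 0.54 (adjusted p = 5.06e-05) rests on few counts in that group, and without DMSO replicate 1 it was 4.75. Kcnj4 stood at 1.57 to 1.66 CPM with DMSO and 2.80 to 3.15 CPM with CHIR99021 (0.88 ± 0.18, adjusted p = 0.00133).

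The tandem-pore subunits carry background currents and were led by the TREK genes, whose channels open on stretch, lipids and heat. Kcnk2 measured 4.17, 4.91, 3.51 and 4.58 CPM with DMSO and 28.5, 33.9, 29.9 and 30.2 CPM with CHIR99021. Its relative Kcnk10 measured 0.974, 0.799, 0.469 and 0.523 CPM with DMSO and 2.93, 2.48, 2.15 and 2.89 CPM with CHIR99021. In both genes the CHIR99021 samples lay close together and above every DMSO sample, and the log2 fold changes were 2.83 ± 0.11 and 1.90 ± 0.27 (SE, adjusted p = 1.19e-09 and 8.03e-05). The remaining TREK-family gene, Kcnk4, was too low to be tested, with 49 counts over the DMSO and 22 over the CHIR99021 samples. Kcnk2 shares 12.2% of its exon bases with A430027H14Rik, a transcript with 20 counts in all. Kcnk1 fell by 0.39 ± 0.08 on the log2 scale with no overlap of groups (adjusted p = 0.00172), and Kcnk5, Kcnk6 and Kcnk3 did not pass.

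Promoters of RefSeq genes on GRCm38.p6, from 250 bases before the start to 50 after it, were searched on both strands for CTTTGAT, the core letters to which the TCF/LEF partners of β-catenin bind. The table of promoters held 67 of the 92 subunits with 92 promoters, of which 3 (3.26%) carried the motif, and so did 3.73% of all 32851 promoters. They belong to Kcnk2, which rose, and to Kcnj16 and Kcne4, which fell. The motif was in 1 of 25 promoters of subunits that rose (4.0%) and 2 of 36 of those that fell (5.56%). So few matches cannot show whether the motif is more or less common near these genes than elsewhere. A match is a description of the letters and not of a binding site. The 3 promoters are shown because they are the ones that hold these letters, with the motif in capitals, written 5′ to 3′ on the strand of the gene, so that on Kcnj16 it reads as its reverse complement. The motif begins 221 bases before the start in Kcnk2 (chr1:189402224-189402523, − strand) and 239 bases before it in Kcnj16 (chr11:110997237-110997536, + strand) and Kcne4 (chr1:78816661-78816960, + strand). The start used for Kcnj16 lies inside the gene, which spans chr11:110968033-111027968 in the count table.
Kcnk2: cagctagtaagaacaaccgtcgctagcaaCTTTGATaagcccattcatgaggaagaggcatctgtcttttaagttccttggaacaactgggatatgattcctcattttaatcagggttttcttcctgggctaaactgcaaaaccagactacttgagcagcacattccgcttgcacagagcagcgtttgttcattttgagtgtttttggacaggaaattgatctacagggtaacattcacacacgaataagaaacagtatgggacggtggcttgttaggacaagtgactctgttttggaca
Kcnj16: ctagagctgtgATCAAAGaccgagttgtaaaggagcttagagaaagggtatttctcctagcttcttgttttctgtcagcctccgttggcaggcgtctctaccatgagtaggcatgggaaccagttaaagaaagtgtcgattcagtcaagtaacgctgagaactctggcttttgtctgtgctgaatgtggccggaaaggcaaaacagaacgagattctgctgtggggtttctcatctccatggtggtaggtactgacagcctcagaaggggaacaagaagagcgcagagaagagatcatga
Kcne4: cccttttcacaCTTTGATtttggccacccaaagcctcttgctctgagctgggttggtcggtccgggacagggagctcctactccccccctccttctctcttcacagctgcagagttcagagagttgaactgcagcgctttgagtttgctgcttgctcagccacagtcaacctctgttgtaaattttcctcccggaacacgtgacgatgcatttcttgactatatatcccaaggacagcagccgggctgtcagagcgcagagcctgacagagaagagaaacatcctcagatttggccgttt

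Among auxiliary subunits Kcnab1 rose most, and its log2 fold change was the highest of the tested subunits, except that without DMSO replicate 1 Kcnj12 (4.75) came above Kcnab1 (4.49). It encodes a cytoplasmic beta subunit of Shaker channels with the fold of an aldo-keto reductase, and some of its isoforms close the channel rapidly (chr3:65109384-65378223, + strand). It measured 2.06, 2.63, 1.70 and 2.29 CPM with DMSO and 50.5, 54.1, 45.4 and 49.9 CPM with CHIR99021. The samples of each group lay close together, and Kcnab1 was 23.0-fold higher with CHIR99021 (log2 fold change 4.52 ± 0.11, adjusted p = 3.14e-11). Its sister subunit Kcnab2 stood at 12.6 to 15.1 CPM with DMSO and fell to between 6.12 and 8.47 CPM (-0.98 ± 0.12, adjusted p = 2.69e-05), and Kcnab3 did not pass (-0.13 ± 0.28, adjusted p = 0.739).

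All 4 tested Kcne genes, small single-pass subunits that slow or hold open partner channels, fell. Kcne3, a partner of Kcnq1 in epithelia, measured 10.2, 7.25, 8.14 and 7.26 CPM with DMSO and 1.56, 2.48, 2.01 and 2.63 CPM with CHIR99021. Kcne1, its partner in heart and inner ear, measured 0.811, 1.26, 1.29 and 1.11 CPM with DMSO and 0.0624, 0.469, 0.0718 and 0.0657 CPM with CHIR99021. Kcne1l measured 3.41, 3.71, 3.98 and 3.60 CPM with DMSO and 1.62, 1.07, 0.861 and 2.04 CPM with CHIR99021. None of these 3 genes had overlapping groups, though Kcne1 in CHIR99021 replicate 2 stood above the rest of its group. The log2 fold changes were -1.92 ± 0.19 for Kcne3, -2.69 ± 0.51 for Kcne1 (-3.92 without CHIR99021 replicate 2) and -1.38 ± 0.25 for Kcne1l (SE, adjusted p = 4.31e-06, 8.12e-04 and 5.20e-04). Kcne4 fell by 0.70 on the log2 scale (adjusted p = 0.0216), with overlapping groups, and did not pass without DMSO replicate 1 (0.0581) or 2 (0.0547), or without CHIR99021 replicate 1 (0.0571), 3 (0.0596) or 4 (0.0631).

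The Kcnip genes encode calcium sensors that bind the A-type pores Kcnd1 to Kcnd3, and they did not move as a group. Kcnip2, needed for the A-type current of the heart, measured 1.41, 1.66, 1.52 and 1.37 CPM with DMSO and 0.312, 0.402, 0.431 and 0.329 CPM with CHIR99021. Kcnip1, known from neurons, measured 0.270, 0.971, 0.527 and 0.196 CPM with DMSO and 1.31, 3.48, 0.718 and 1.51 CPM with CHIR99021. The groups were apart for Kcnip2 (log2 fold change -2.00 ± 0.27, adjusted p = 5.60e-05) and overlapped for Kcnip1 (1.81 ± 0.56, adjusted p = 0.0205), which was highest in replicate 2 of each group. Kcnip1 did not pass without DMSO replicate 1 (adjusted p = 0.0582) or CHIR99021 replicate 2 (0.0525), and leaving out both samples of number 2 gave 0.00953. Kcnip1 and Kcnmb1 lie across each other on opposite strands of chromosome 11 with no exon base in common. Kcnip3 rose by a smaller amount (0.65 ± 0.14, adjusted p = 0.00169), and Kcnip4 did not pass. Dpp6, a membrane partner of the same A-type channels, stood at 7.59 to 11.6 CPM with DMSO and rose to between 15.8 and 24.2 CPM (1.08 ± 0.17, adjusted p = 3.54e-04).

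**Figure D3:**
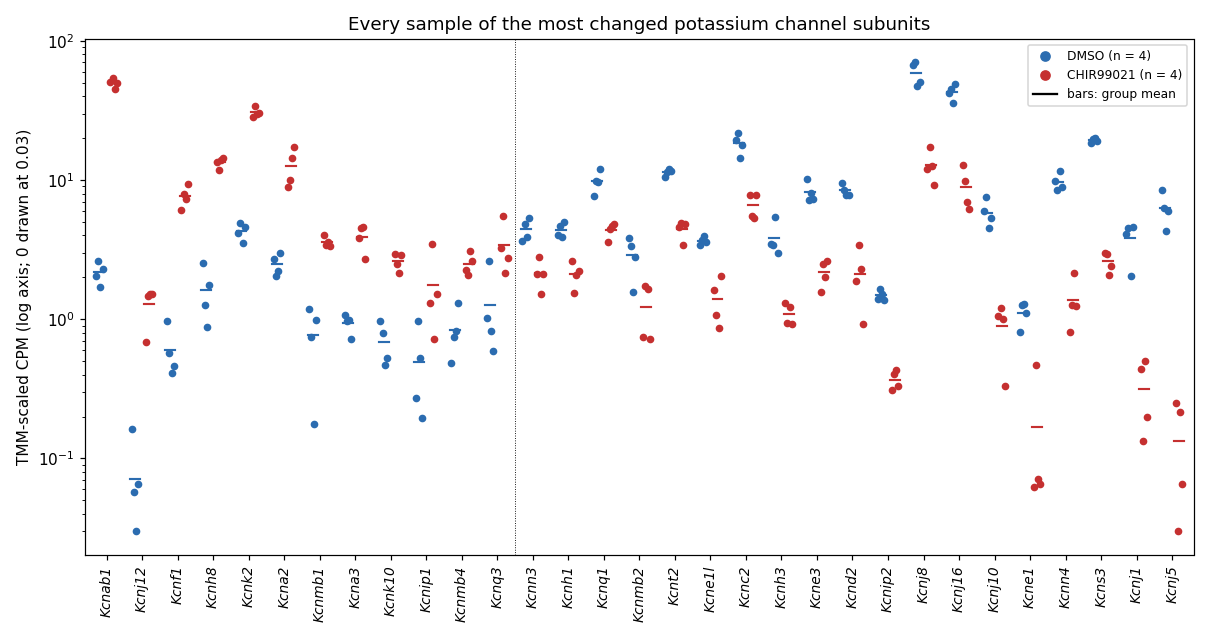
TMM-scaled CPM (log axis) of 31 subunits with an adjusted p under 0.05, an absolute log2 fold change over 1 and a mean of 1 CPM or more in either group, with each point a sample and each bar a group mean. The groups do not overlap in 28 of the 31, and the exceptions are Kcnq3, Kcnip1 and Kcnmb2.

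Over the 32 most changed subunits, 12 rose and 20 fell. Subunits that share a channel could be lined up side by side. Kcnj8 with Abcc9, Kcnj10 with Kcnj16 and Kcnq1 with Kcne1 and Kcne3 each fell, whereas Kcnma1 rose with Kcnmb1, Kcnmb4 and Lrrc55 and the BK subunit Kcnmb2 fell. Within the Shaker, Shab and A-type sets members passed the test in both directions. Kcns3 and the Shab partner Amigo1 (-1.92 ± 0.09, adjusted p = 3.75e-09) fell, while Kcnb2 and Kcnf1 rose.

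**Figure D4:**
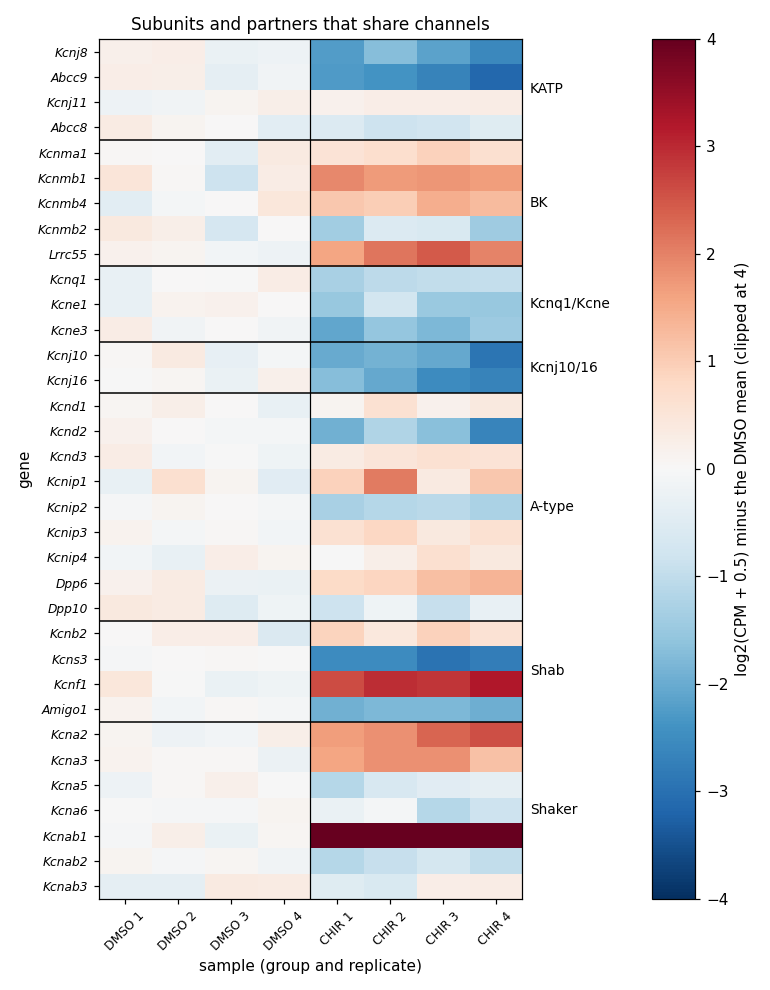
Log2(CPM + 0.5) of subunits and partners that share channels in each of the 8 samples, minus the gene's mean over the DMSO samples, with blue lower, red higher and colours clipped at 4. KATP and BK mark the ATP-sensitive and the large-conductance channel. The ATP-sensitive pair Kcnj8 and Abcc9 is blue in all 4 CHIR99021 samples, and Kcnma1, Kcnmb1, Kcnmb4 and Lrrc55 are red in all 4.

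Of the 15 subunits that did not pass, the 6 with the highest mean FPKM were Kcnk5, Kcnn1, Kcnab3, Kcnd1, Kcnk6 and Kcnip4. Kcnk5, a tandem-pore channel of proximal tubule cells, measured 3.42 ± 0.35 FPKM with DMSO and 2.77 ± 0.53 FPKM with CHIR99021 (SD, log2 fold change -0.17 ± 0.14, adjusted p = 0.368). Kcnn1, a small-conductance calcium-activated channel, measured 1.85 ± 0.05 and 2.01 ± 0.20 FPKM (0.26 ± 0.11, adjusted p = 0.0767). Kcnd1 and Kcnip4 had log2 fold changes of 0.35 ± 0.16 and 0.35 ± 0.20 (adjusted p = 0.0842 and 0.17). Kcnk6 had -0.43 ± 0.21 (adjusted p = 0.117), and passed without DMSO replicate 4 (0.0454) or CHIR99021 replicate 1 (0.0247). Kcna6, Kcnc4, Kcng1, Kcnh7, Kcnj11, Kcnk3 and Kcnn2 also did not pass, of which Kcnh7 passed without CHIR99021 replicate 3 (adjusted p = 0.0412) and Kcnn2 without CHIR99021 replicate 1 (0.0422).

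The 30 subunits too low to be tested were spread over all classes. They comprised 6 voltage-gated alpha subunits (Kcna1, Kcna4, Kcnc1, Kcnh4, Kcnh5 and Kcnh6), 7 silent ones (Kcng2 to Kcng4, Kcns1, Kcns2, Kcnv1 and Kcnv2), 5 inward rectifiers (Kcnj3, Kcnj6, Kcnj9, Kcnj13 and Kcnj14), 8 tandem-pore subunits (Kcnk4, Kcnk7, Kcnk9, Kcnk12, Kcnk13, Kcnk15, Kcnk16 and Kcnk18), the activated channels Kcnt1 and Kcnu1, and the auxiliary Kcne2 and Kcnmb3. Kcnv2, a silent partner known from photoreceptors, had 20 counts over the DMSO samples and 74 over the CHIR99021 samples. Kcnh5 had 68 and 10 counts, and Kcna1 had 53 and 15. In edgeR with no expression filter, which tested them, Kcnv2, Kcnh5 and Kcna1 passed, and 19 subunits were higher and 36 lower in all. The same counts were not made over all genes in that fit. Whether 19 and 36 exceed the rate over all genes there was therefore not tested. Kcnmb3 and Kcnk16 had no counts with CHIR99021, against 4 and 1 with DMSO, and no fold is given for them.

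A few neuronal subunits were highest in the samples of number 2. Kcnq3 and Kcnip1, described above, were highest in replicate 2 of each group. Kcnk9 showed the same order, at 0.628 and 1.27 CPM in the samples of number 2 and at most 0.215 CPM elsewhere, and so did Kcnc1, at 0.228 and 1.20 CPM. Both were too low to be tested and are named for this order. In the samples of number 2 they had few counts, 11 and 19 for Kcnk9 and 4 and 18 for Kcnc1. Of the 62 tested subunits 12 were highest in replicate 2 of both groups, against 5, 2 and 3 for replicates 1, 3 and 4. These 12 were not all neuronal and included Kcnj8 and Kcnj10, described above for vessels and tubule. The same count was not made over all tested genes. Across those genes the samples of number 2 had the highest correlation of any equal-number pair, at 0.346 after removal of group means. Of the 8 neuron markers 7 were highest in replicate 2 with DMSO and 8 with CHIR99021. Only Elavl4 passed the test, and it fell (log2 fold change -2.02 ± 0.67, adjusted p = 0.0448), while the other 7 did not pass. The part of neurons in these values was not tested.

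**Figure D5:**
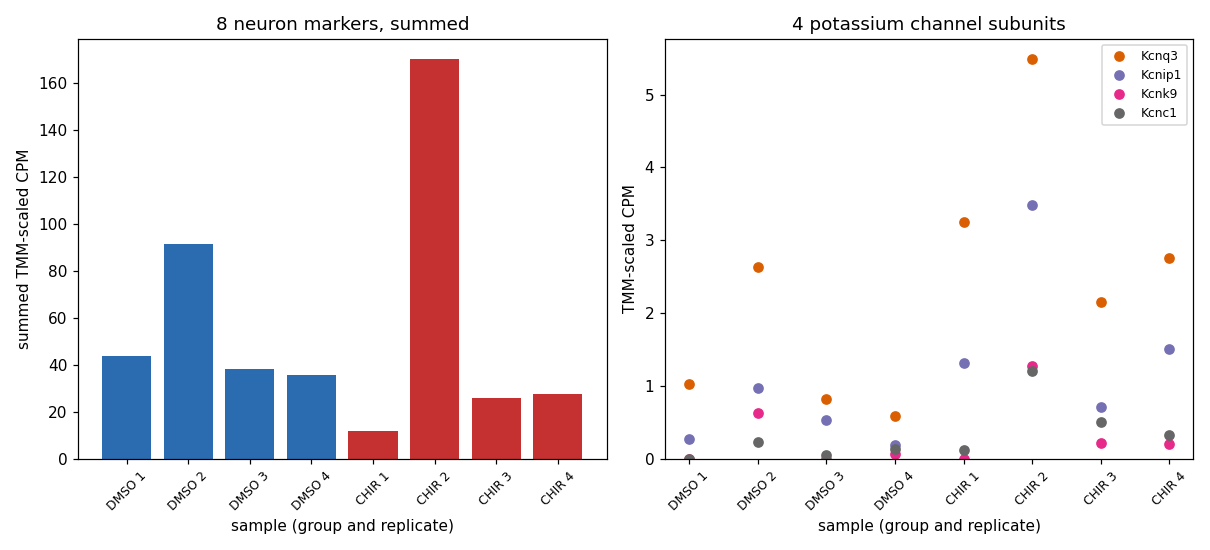
Left, the summed TMM-scaled CPM of 8 neuron markers in each sample, and right, the TMM-scaled CPM of Kcnq3, Kcnip1, Kcnk9 and Kcnc1 in the same samples, with replicate numbers on the x axis. Replicate 2 is the highest sample of its group in both panels, at 91.6 CPM (DMSO) and 170 CPM (CHIR99021) on the left. Kcnk9 and Kcnc1 were too low to be tested.

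Partner proteins outside the Kcn names moved in both directions. Of 12 tested of a list of 16, 33.3% moved each way, against 23.7% of all tested genes that rose and 25.0% that fell: 4 rose (Lrrc55, Dpp6, Cntnap2 and Kcnrg) and 4 fell (Abcc9, Amigo1, Abcc8 and Hcn2). Leaving out DMSO replicate 1 (adjusted p = 0.0574), 3 (0.055) or 4 (0.0563) or CHIR99021 replicate 2 (0.0627) ended the call of Cntnap2, and leaving out DMSO replicate 2 (0.0742) or CHIR99021 replicate 1 (0.0649), 3 (0.0662) or 4 (0.0543) that of Hcn2. A list of 23 genes held potassium pumps and cotransporters. It also held genes that do not carry potassium themselves, the Fxyd pump regulators and the sodium-chloride cotransporter Slc12a3. Of its 21 tested genes 5 rose (23.8%, against 23.7% of all tested genes) and 10 fell (47.6%, against 25.0%). Atp1b1, a beta subunit of the sodium pump that builds the potassium gradient, stood at 240 to 300 CPM with DMSO and 76.6 to 91.1 CPM with CHIR99021 (-1.74 ± 0.09, adjusted p = 6.38e-08), while Atp1b3 rose by 0.36 ± 0.07. Slc12a2, the cotransporter that loads potassium into most cell types, stood at 249 to 271 CPM with DMSO and 83.9 to 91.7 CPM with CHIR99021 (-1.54 ± 0.05, adjusted p = 1.92e-10), and the pump regulator Fxyd4 fell by 2.82 on the log2 scale. The summed level of the whole list was 1970 to 2120 CPM with DMSO and 1410 to 1470 CPM with CHIR99021.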

How the data were processed

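RNA was sequenced from 4 DMSO and 4 CHIR99021 kidney samples. The authors removed poor reads and counted the rest per gene with featureCounts. The submitters' processing notes name bcl2fastq, HISAT2 2.0.5 and the build GRCm38. The deposited counts are whole numbers without scaling. The deposited FPKM values are those counts divided by gene length and by the total of the sample, made by the authors. Other columns hold the authors' mean signal, fold change and p-values of their comparison and were not used. For RNA and libraries the labels name Trizol and NEBNext Ultra, and the paper other kits.

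Genes were kept by filterByExpr (minimum count 10, minimum total count 15), which left 16723 of 30890. Counts were scaled by TMM and the groups compared with edgeR's quasi-likelihood test (edgeR 4.0.16, R 4.3.3), and p-values were adjusted by the method of Benjamini-Hochberg across the tested genes. The procedure was tested on simulated data. The study's methods pair the left and right kidney of an embryo but do not tie replicate numbers to embryos. Samples of equal number correlated at 0.111 to 0.346 across genes after removal of group means, against -0.180 to 0.0766 for others, and were treated as pairs in the block. The sources used here do not state whether embryos shared a litter.

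Every subunit with an adjusted p under 0.05, an absolute log2 fold change over 1 and a mean of 1 CPM or more in either group has each sample's value in the text unless it is among a few genes that are not reported here, and the 6 subunits with the highest FPKM among those that did not pass are named. Other subunits, partners and pumps were named after their values were seen. The members, the lists and the tests were chosen with earlier results of these data known. Alternatives were a replicate block, RLE scaling, DESeq2 1.42.0, 2 other filters, limma 3.58.1 on 3 log scales and leaving out every sample once. A fit without both samples of number 2 was added after the data were seen. Protein sequences were not used here.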

Additional observations from a re-analysis of the deposited data

Results flagged for a closer look

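In 4 of 64 groups of 4 samples checked, 1 sample lay far from the other 3, and chance alone would give about 3.2, or 1 in 20. Kcne1 stood at 0.469 CPM in CHIR99021 replicate 2, above the 0.0624 to 0.0718 CPM of the others. Kcnj1 stood at 2.05 CPM in DMSO replicate 3, below the 4.11 to 4.58 CPM of the others. Kcnj12 stood at 0.686 CPM in CHIR99021 replicate 1, below 1.47 to 1.51 CPM. Kcnt2 stood at 3.44 CPM in CHIR99021 replicate 3, below 4.62 to 4.89 CPM.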

How the results depend on the processing

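The counts of subunits called stayed within 1.5 times their value under the alternatives run, except that limma on log2(FPKM + 1), which compresses low genes, left 4 higher and 6 lower beyond a log2 fold change of 1, against 12 and 21. With each sample left out, 15 to 18 were higher and 29 to 33 lower, and 10 to 13 and 21 to 23 beyond 1. In the paired analysis with the replicate block, 17 were higher and 31 lower, and Kcna6 (adjusted p = 0.0332) was the only call that changed. Under the filter of at least 1 CPM in 4 samples Kcne1 and Kcnj12 were not tested. Over 17 alternatives 29 of the 32 most changed subunits kept their call wherever they were tested, and none changed direction. Kcnip1 lost it with limma on log2(FPKM + 1) (adjusted p = 0.0829) and log2(FPKM + 0.1) (0.0527), Kcnmb2 with limma on log2(count + 1) (0.0649), and Kcnq3 with no expression filter (0.0645) and with log2(FPKM + 1) (0.0721). Kcna5 (0.0637), Kcnj2 (0.0751) and Kcnq5 (0.0505) did not pass without both samples of number 2, and Kcna5 (0.12), Kcne4 (0.123), Kcnj2 (0.083), Kcnj15 (0.0633) and Kcnq5 (0.0723) with limma on log2(count + 1). The cause was not tested. On the FPKM scales the median gene stood at -0.10 and -0.13, so changes there are relative to that shift. Subunits with few counts in a group, such as Kcnj12 and Kcnj5, have folds set by those counts.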
